A study of Quercus ilex with 12 samples.

Results

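The contigs described here are the 100 leaf transcripts of holm oak (Quercus ilex) that lay furthest below all other libraries in watered seedlings at the second sampling. A contig is an assembled stretch of transcript sequence, and 47568 contigs were listed in each of the 12 libraries. Members were chosen on their abundance in TPM, the share of a library's transcripts that a contig makes up after correction for contig length. A contig qualified if its mean over the 12 libraries was at least 2 TPM and its highest value in the 3 second-sampling control libraries was below its lowest value in the other 9. Contigs with all 6 drought libraries above all 6 control libraries were left out, and they numbered 110. Of the 23684 contigs with a mean of at least 2 TPM, 1720 met the rule, which is 7.26%, and 865 did on values per effective length scaled by TMM, a library factor taken from the bulk of the contigs. They were ranked by the lowest TPM of the other 9 libraries over the highest TPM of the second-sampling controls, with 0.1 added to both, and the first 100 were taken.

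Leaves came from seedlings 6 months old. The groups were drought at the second sampling, well-watered control at the second sampling, drought at the first sampling and well-watered control at the first sampling, with 3 biological replicates each. Drought was imposed by withholding water, and no other treatment, genotype or provenance was given. The sample labels placed the samplings at 20 and 25 days, whereas the series description named 17 and 24 days of drought. Whether a replicate was 1 seedling or a pool of seedlings was not given, so how far the spread between replicates stands for that between plants is not known.

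Holm oak is an evergreen tree of the Mediterranean whose leaves tolerate dry summers. In plants from which water is withheld, stomata close, growth slows, and transcripts of stress protection, hormone signalling and primary metabolism are known to shift. A comparison with watered leaves of the same sampling and a comparison with leaves of the earlier sampling answer different questions, and the rule drew on both. The contigs carried no gene name, description or sequence, so no role can be given to any of them and the tissue could not be checked against leaf markers. In bulk leaf RNA, fewer cells of a type and less RNA per cell cannot be told apart.

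The libraries held between 11239487 and 33384307 estimated counts. In 3 of them the best correlation of the expression profile with a library of another group exceeded the best one within the group by 0.0356 to 0.0536, and these are called the libraries that stood apart: drought replicate 3 and control replicate 2 of the second sampling, and control replicate 2 of the first. Among the other 9 libraries that excess was at most 0.00722, so the 3 were set apart by its size, seen in these data. Control replicate 2 of the second sampling and control replicate 2 of the first correlated best with each other, at 0.926. Within their groups the best values were 0.890 and 0.872. Drought replicate 3 of the second sampling correlated best with control replicate 1 of the first, at 0.928, against 0.884 within its group. Why these libraries were alike was not tested. Control replicate 2 of the second sampling bears directly on the choice of contigs, and it is the library that was strictly highest of the 3 second-sampling controls in 69 of the 100 contigs, against 48.2% of all contigs with a mean of at least 2 TPM. Replicate 1 was highest in 15 and replicate 3 in 11, against 26.2% and 25.4% of all such contigs. Without control replicate 2 of the second sampling 5771 contigs met the rule in place of 1720, and 10 of the 100 contigs were still among the first 100. All 100 still met the rule without that library. Without all 3 of the libraries that stood apart 5242 contigs met it, and again 10 stayed among the first 100. Of the 100 contigs 88 then still met the rule. The first 100 places thus rest largely on control replicate 2 of the second sampling.

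Summed over the 100 contigs, the leaf transcript level was several times lower in the second-sampling controls than in any other group. The sum was 1778, 2123 and 2502 TPM in the drought libraries of the second sampling, against 383, 565 and 408 TPM in the control libraries of the second sampling. It was 1989, 2351 and 2828 TPM in the drought libraries of the first sampling, against 2722, 1696 and 2406 TPM in the control libraries of the first sampling. The means were 2134 ± 362 TPM for drought and 452 ± 98.9 TPM for control at the second sampling, and 2389 ± 421 TPM for drought and 2275 ± 525 TPM for control at the first (SD, n = 3 each). The second-sampling controls did not overlap with any other group, which the rule fixed. The ranges of the other 3 groups overlapped, with the lowest sum in control replicate 2 of the first sampling, 1 of the libraries that stood apart.

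**Figure D1:**
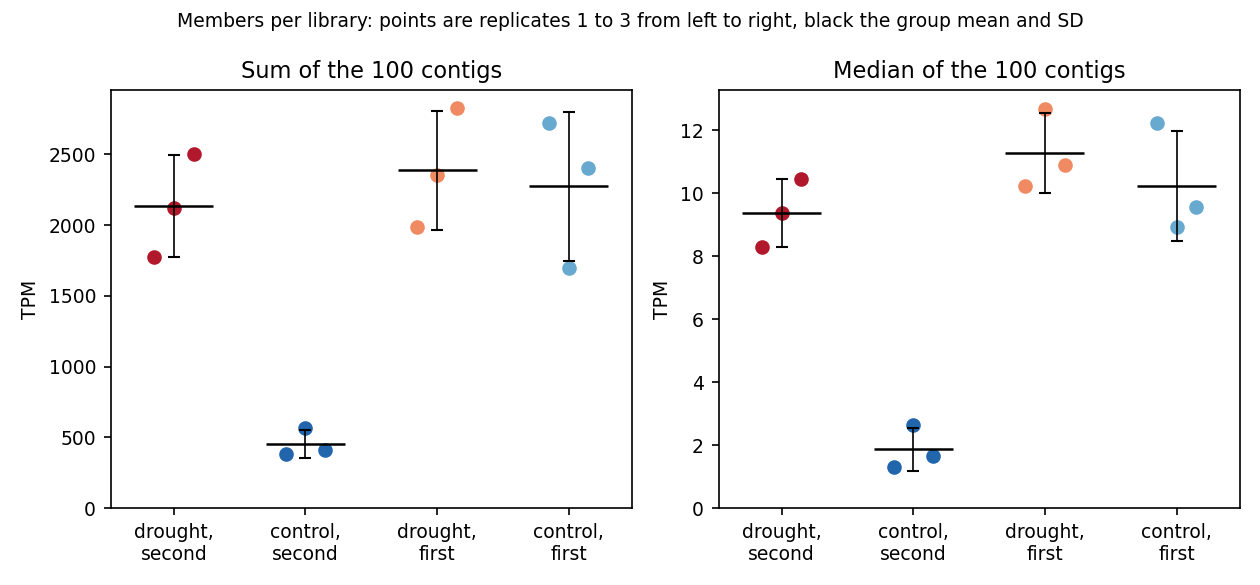
TPM summed over the 100 contigs (left) and TPM of the median contig (right) in each library (points, replicates 1 to 3 from left to right), with the group mean and SD in black and drought left of control at each sampling. The sums of the 3 second-sampling controls lie between 383 and 565 TPM and those of the other 9 libraries between 1696 and 2828 TPM, and the medians of the second-sampling controls lie between 1.32 and 2.64 TPM.

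The sum did not rest on a few abundant contigs. The 5 most abundant held 28.7% of it over the 12 libraries. Without those 5 the sum was 1364, 1501 and 1682 TPM in second-sampling drought leaves, against 242, 389 and 270 TPM in second-sampling control leaves. It was 1492, 1782 and 2041 TPM in first-sampling drought leaves, against 1934, 1290 and 1519 TPM in first-sampling control leaves. For any subset of the 100 contigs the rule fixes that the second-sampling controls are lowest. The ranking also took the contigs with the largest ratios, at least 1.68, so the size of the gap was partly chosen as well. The median contig had 8.28, 9.37 and 10.5 TPM in second-sampling drought leaves, against 1.32, 2.64 and 1.65 TPM in second-sampling control leaves. The median contig had 10.2, 12.7 and 10.9 TPM in first-sampling drought leaves, against 12.2, 8.92 and 9.57 TPM in first-sampling control leaves.

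Most of the 100 contigs were lowered rather than lost in the second-sampling controls. The mean of those 3 libraries stood at 16.2% of the mean of the other 9 for the median contig, with a range of 0 to 45.9%. Only 3 contigs, at ranks 1, 2 and 8, were at 0 in all 3 second-sampling controls, and 13 were at 0 in at least 1 of them. The highest of the 3 control values ranged from 0 to 60.9 TPM, with a median of 2.74 TPM. The lowest of the other 9 values ranged from 0.21 to 108 TPM, with a median of 5.27 TPM.

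**Figure D2:**
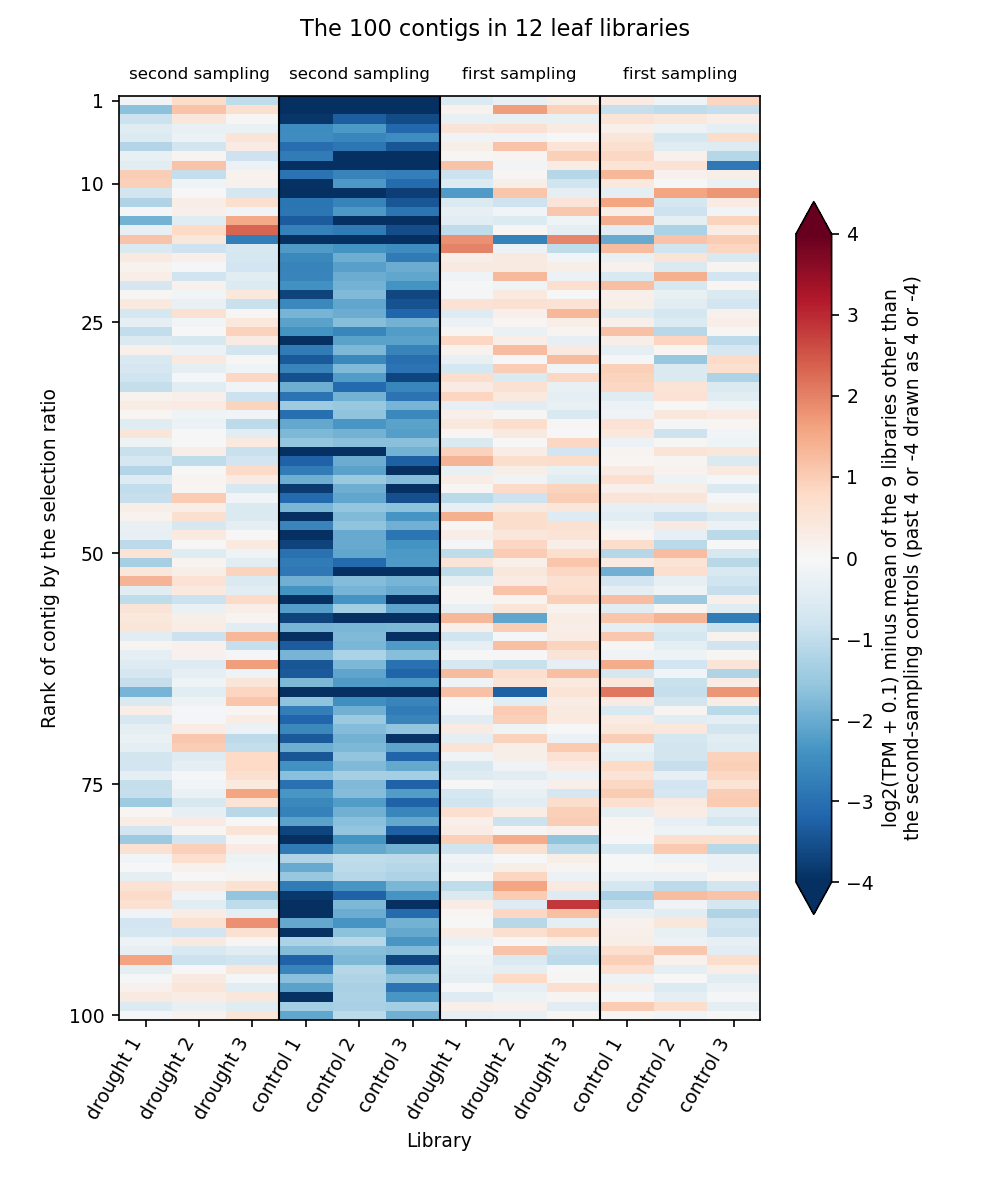
Level of each of the 100 contigs (by rank, down the page) in each of the 12 libraries, coloured by log2(TPM + 0.1) minus the mean of that value over the 9 libraries other than the second-sampling controls, with values past 4 or -4 drawn as 4 or -4. The 3 columns of the second-sampling controls are low throughout, as the rule requires, and their replicate 2 is strictly the highest of the 3 in 69 contigs.

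The gap that defined the contigs was wide for few of them. The ranking ratio was 29.3 at rank 1, 1.92 at the median and 1.68 at rank 100. It was at least 3 for 8 contigs and at least 2 for 34. Just inside the boundary, the contig at rank 100 had 2.31 TPM in its highest second-sampling control and 3.94 TPM in the lowest of the other 9 libraries. Just outside it, the contig next in rank had 1.97 and 3.37 TPM, so the boundary separates no group of its own.

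The contig ranked first, contig-1591000012, is 857 bases long and was read in all 9 of the other libraries but in no second-sampling control. Its level was 5.45, 9.87 and 2.83 TPM in second-sampling drought leaves, against 0, 0 and 0 TPM in second-sampling control leaves. It was 3.92, 4.68 and 6.96 TPM in first-sampling drought leaves, against 7.43, 5.16 and 10.6 TPM in first-sampling control leaves. The group means were 6.05 ± 3.56 TPM in second-sampling drought, 5.19 ± 1.58 TPM in first-sampling drought and 7.74 ± 2.75 TPM in first-sampling control leaves (SD, n = 3 each), so the 3 groups that carried it overlapped. Summed over 3 libraries it had 297 counts in second-sampling drought, 0 in second-sampling control, 338 in first-sampling drought and 454 in first-sampling control leaves. Taking 3 counts over the whole group as the most that a count of 0 allows, which covers counting error only, contig-1591000012 was at least 102-fold higher in second-sampling drought than in second-sampling control leaves. By the same floor, the second-sampling controls were at least 132-fold lower than the first-sampling controls.

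The contig ranked second, contig-458000022, is 461 bases long, and at each sampling its 3 drought libraries lay above its 3 control libraries. It had 0.58, 4.57 and 3.17 TPM in second-sampling drought leaves, against 0, 0 and 0 TPM in second-sampling control leaves. It had 2.24, 6.59 and 3.94 TPM in first-sampling drought leaves, against 1.02, 0.95 and 1.01 TPM in first-sampling control leaves. Replicate 1 of second-sampling drought was below the first-sampling controls, which kept the contig within the rule. Its summed counts were 64.8 in second-sampling drought, 0 in second-sampling control, 114 in first-sampling drought and 26.1 in first-sampling control leaves. With the floor of 3 counts per group, contig-458000022 was at least 22.3-fold higher in second-sampling drought than in second-sampling control leaves, and the second-sampling controls were at least 7.57-fold lower than the first-sampling controls. The third contig without a count in the second-sampling controls, at rank 8 (393 bases), had 1.56, 4.88 and 1.81 TPM in second-sampling drought leaves. It had 4.83, 1.97 and 2.64 TPM in first-sampling drought leaves, against 3.19, 3.23 and 0.21 TPM in first-sampling control leaves, where replicate 3 came close to 0 as well. By the same floor it was at least 17.1-fold higher in second-sampling drought than in second-sampling control leaves.

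The other contigs of the first 10 ranks were detected in at least 1 second-sampling control, and they differed in which of the remaining groups was highest. The contig at rank 3 (3819 bases) had 4.64, 11.7 and 8.72 TPM in second-sampling drought, against 0.48, 0.77 and 0.61 TPM in second-sampling control leaves. It had 6.94, 6.93 and 6.82 TPM in first-sampling drought, against 12.5, 11.3 and 10.1 TPM in first-sampling control leaves. At the first sampling its drought libraries were nearly equal and all lay below the controls. Rank 4 (1179 bases) ran the other way at the first sampling, with 11.3, 12.2 and 9.92 TPM in first-sampling drought, against 9.13, 6.81 and 6.18 TPM in first-sampling control leaves. At the second sampling the contig at rank 4 had 5.65, 6.39 and 6.55 TPM in drought leaves, against 1.31, 1.53 and 0.82 TPM in control leaves. Its 3 second-sampling drought libraries all lay below its 3 first-sampling drought libraries.

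Rank 5 (379 bases) was the most abundant of these, with 74.7, 93.6 and 158 TPM in second-sampling drought, against 19.6, 17.8 and 19.6 TPM in second-sampling control leaves. It had 98.5, 98.7 and 112 TPM in first-sampling drought, against 154, 67.7 and 181 TPM in first-sampling control leaves, where replicate 2 was below every drought library of either sampling. The contigs at ranks 6 and 7 (2379 and 314 bases) were scarce. Rank 6 had 1.63, 2.26 and 4.84 TPM in second-sampling drought, against 0.37, 0.42 and 0.26 TPM in second-sampling control leaves. Rank 6 had 4.50, 8.43 and 5.57 TPM in first-sampling drought, against 6.02, 2.67 and 2.63 TPM in first-sampling control leaves. These first-sampling ranges overlapped. Rank 7 had 1.94, 2.59 and 1.31 TPM in second-sampling drought, against 0.26, 0 and 0 TPM in second-sampling control leaves. Rank 7 had 2.49, 2.62 and 4.77 TPM in first-sampling drought, against 4.38, 2.71 and 1.04 TPM in first-sampling control leaves, again overlapping.

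At ranks 9 and 10 (2350 and 899 bases) the drought leaves of the second sampling held the widest range or the highest library. Rank 9 had 15.7, 3.98 and 8.69 TPM in second-sampling drought, against 0.93, 1.14 and 1.09 TPM in second-sampling control leaves. Rank 9 had 4.25, 8.29 and 3.50 TPM in first-sampling drought, against 19.6, 8.81 and 9.30 TPM in first-sampling control leaves, so that all 3 first-sampling drought libraries lay below the controls. Rank 10 had 30.2, 13.9 and 17.7 TPM in second-sampling drought, against 0.91, 3.08 and 1.77 TPM in second-sampling control leaves. Rank 10 had 10.6, 18.4 and 9.03 TPM in first-sampling drought, against 21.3, 15.6 and 13.1 TPM in first-sampling control leaves. For both contigs, the replicates of second-sampling drought spread over a wider range than the means of the 3 groups other than the second-sampling controls.

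**Figure D3:**
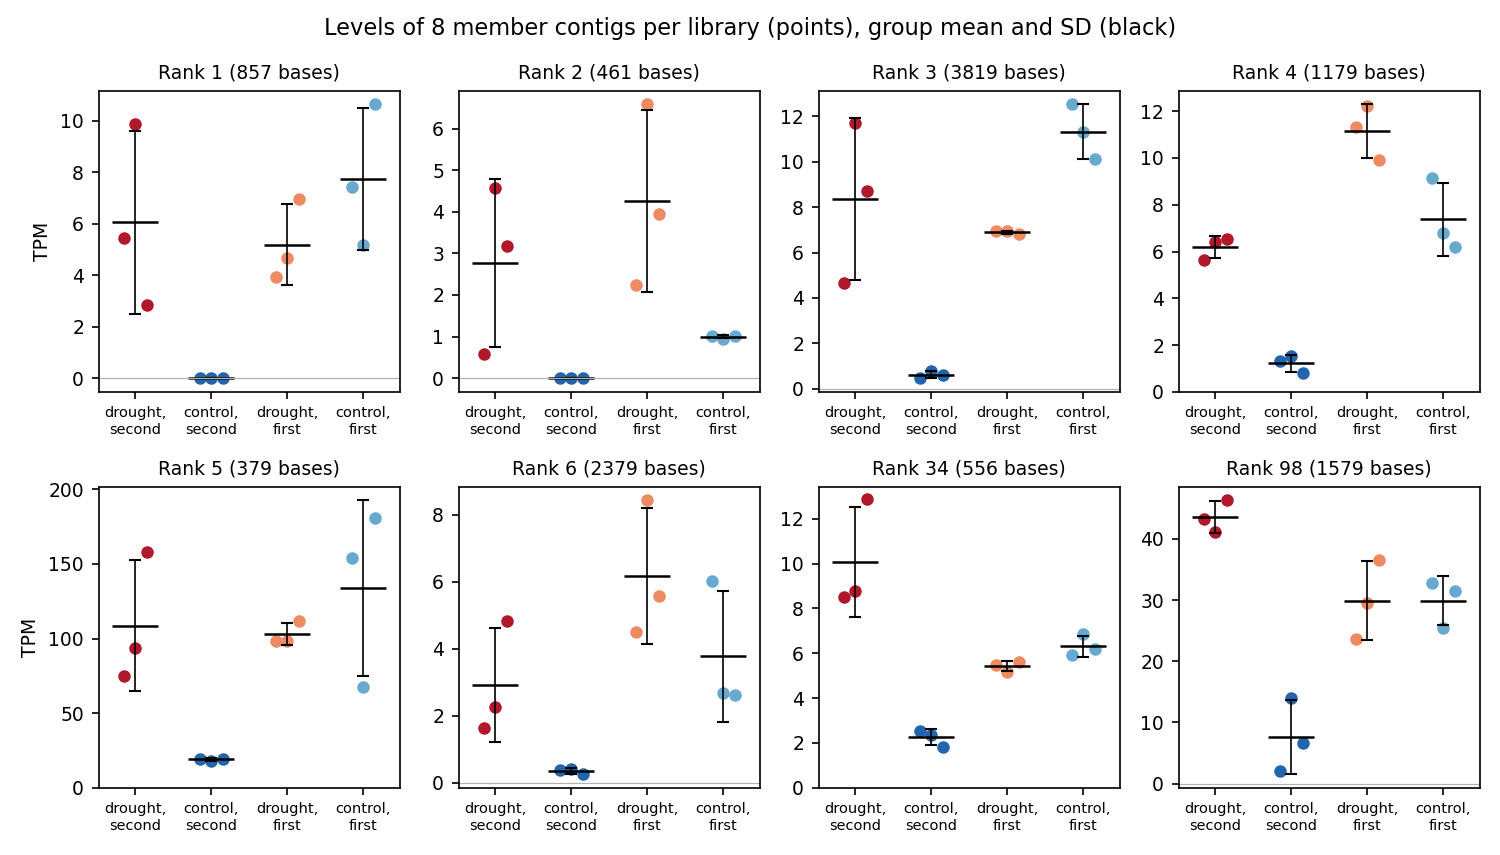
TPM per library of the contigs at ranks 1 to 6, 34 and 98, 1 panel each on its own linear axis, with points for the 3 libraries of a group and the group mean and SD in black. Ranks 1 and 2 sit at 0 in all 3 second-sampling controls, ranks 34 and 98 have all second-sampling drought libraries above the first-sampling drought ones, and the order of the other 3 groups changes between contigs.

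The 5 most abundant contigs, at ranks 74, 25, 24, 5 and 75, kept a substantial level in the second-sampling controls. Rank 74 (492 bases) averaged 137 TPM over the 12 libraries. It had 117, 148 and 239 TPM in second-sampling drought, against 48.7, 60.9 and 60.4 TPM in second-sampling control leaves, and 108, 113 and 132 TPM in first-sampling drought, against 221, 122 and 275 TPM in first-sampling control leaves. Rank 25 (343 bases) had 103, 122 and 176 TPM in second-sampling drought, against 29.9, 40.2 and 35.5 TPM in second-sampling control leaves, and 112, 139 and 158 TPM in first-sampling drought, against 150, 89.3 and 157 TPM in first-sampling control leaves. At ranks 74, 25, 5 and 75 alike, drought replicate 3 was the highest of the second-sampling libraries and control replicate 2 the lowest of the first-sampling controls, and both are libraries that stood apart.

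The contig at rank 24 (1899 bases) had 64.9, 160 and 110 TPM in second-sampling drought, against 29.1, 26.3 and 11.6 TPM in second-sampling control leaves. It had 73.2, 121 and 261 TPM in first-sampling drought, against 77.1, 64.9 and 119 TPM in first-sampling control leaves, so its highest library was drought replicate 3 of the first sampling. Rank 75 (273 bases) had 55.0, 98.3 and 138 TPM in second-sampling drought, against 13.4, 31.0 and 11.2 TPM in second-sampling control leaves. It had 105, 97.0 and 123 TPM in first-sampling drought, against 187, 62.4 and 156 TPM in first-sampling control leaves. In both contigs the first-sampling drought and control ranges overlapped.

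Contig lengths ranged from 265 to 4865 bases with a median of 1252, beside 200 to 15009 with a median of 1176 over all 23684 contigs with a mean of at least 2 TPM. The longest contig stood at rank 68 and the shortest at rank 39. The shortest had 1.62, 3.78 and 1.65 TPM in second-sampling drought, against 0, 0 and 0.77 TPM in second-sampling control leaves, and 6.01, 3.88 and 1.80 TPM in first-sampling drought, against 3.34, 4.48 and 4.27 TPM in first-sampling control leaves. Mean levels ran from 2.01 to 137 TPM with a median of 8.54, beside a median of 12.9 over all those contigs. There were 55 contigs under 10 TPM and 9 at 50 TPM or more. At the lowest level seen in the other 9 libraries, at least 10 counts would have fallen on 93, 92 and 88 of the 100 contigs in control replicates 1, 2 and 3 of the second sampling. In those libraries 19, 17 and 28 contigs had fewer than 10 counts.

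Estimated counts that are not whole numbers arise where a read matches several contigs and is divided between them. Within a tolerance of 0.005, 26 of the 100 contigs had no whole count in any library, beside 38.3% of all contigs with a mean of at least 2 TPM. Just 1 contig had whole counts in all 12 libraries, beside 1.95%. Reads were shared with other contigs for nearly all of the 100, so that a level can include reads of a near-identical copy. A count of 0 is taken as whole here, which lowers the number of contigs with no whole count. Counts were whole in 3 libraries for each of contig-1591000012 and contig-458000022, and these were the second-sampling controls, with a count of 0. In the libraries where these contigs were read, no count was whole. Their floors above therefore also depend on how shared reads were divided.

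Beyond leaving out contigs with every drought library above every control, the rule asked nothing about the order of the other 3 groups. First-sampling drought leaves had the highest mean of the 3 in 55 contigs, beside 29.4% of all contigs with a mean of at least 2 TPM. Second-sampling drought leaves were highest in 14, beside 26.8%, and first-sampling control leaves in 31, beside 43.8%. Without the 3 libraries that stood apart the counts were 23 for second-sampling drought (29.4% of all), 46 for first-sampling drought (28.5%) and 31 for first-sampling control leaves (42.1%). Among single libraries, drought replicates 2 and 3 of the first sampling were the highest of the 9 in 22 and 18 contigs, beside 14.3% and 6.99%. Drought replicate 1 of the second sampling was the lowest of the 9 in 23 contigs, beside 15.0%, and control replicate 3 of the first sampling in 20, beside 16.3%. The spread over the 9 libraries was wide for a typical member, with a coefficient of variation of 11.95% to 140% and a median of 45.5%, and the highest of the 9 values was 3.78 times the lowest at the median.

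The fold changes that the rule had used were of about equal size against either neighbour group and are given as a description. In the edgeR fit of all 12 libraries, the median log2 fold change of the 100 contigs was 2.25 for second-sampling drought over second-sampling control leaves, with a range of 0.73 to 9.76, beside a median of 0.04 over all contigs tested. For second-sampling over first-sampling control leaves it was -2.25, with a range of -10.06 to -0.62, beside -0.12 over all contigs tested. Both comparisons share the second-sampling controls. Scaling shifted all contigs together to some degree: the median log2 ratio of the second-sampling control mean over the mean of the other 9 libraries was -0.37 on TPM and -0.12 on TMM-scaled values over all contigs with a mean of at least 2 TPM. For the 100 contigs it was -2.58 on TPM and -2.33 on TMM-scaled values. All 100 met the rule on TPM, by which they were chosen, and 95 of them also met it on TMM-scaled values.

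The rule set neither drought group against the other, so the change in drought leaves between the samplings was tested. It is not fully independent of the rule, because values of all 6 drought libraries entered the lowest of the 9 and the clause that left contigs out. All 100 passed the low-count filter of the edgeR fit, which tested 33602 contigs. None of the 100 passed an adjusted p of 0.05 in either direction, and of all contigs tested 0.00298% did, with 0.0% called higher and 0.00298% lower. The smallest adjusted p among the 100 was 0.394 (edgeR quasi-likelihood test, Benjamini-Hochberg over all contigs tested). At an unadjusted p under 0.05, 1 of the 100 was higher in second-sampling drought leaves, beside 3.46% of all contigs tested, and 8 were lower, beside 2.84%. The log2 fold changes of second-sampling over first-sampling drought leaves had a median of -0.29, beside -0.01 over all contigs tested, with a range of -1.81 to 1.74 and standard errors of 0.28 to 1.28. They were above 0 in 32 contigs and below 0 in 68, whereas 49.5% of all contigs tested were above 0. The median standard error was 0.51, with 3 libraries per group. DESeq2 called none of the 100 higher, beside 0.448% of the contigs it gave an adjusted p, and 2 lower, beside 0.548%. Without the libraries that stood apart, edgeR called none of the 100 in either direction, beside 0.0147% of the contigs then tested called higher and 0.0265% called lower.

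All 3 second-sampling drought libraries lay above all 3 first-sampling drought libraries in 2 contigs, beside 8.16% of all contigs with a mean of at least 2 TPM, and below them in 9, beside 5.98%. Without the libraries that stood apart, the counts were 3 (14.9% of all) and 17 (11.7%). Leaving out 1 of the 6 libraries compared gave 2 to 8 above, beside 12.8% to 14.9% of all those contigs, and 10 to 23 below, beside 8.81% to 12.3%. The count above was 8 without drought replicate 1 of the second sampling (13.3% of all), and 5 and 6 without drought replicates 2 and 3 of the first (13.8% and 12.8%). The count below was 12, 21 and 17 without drought replicates 1, 2 and 3 of the second sampling (8.93%, 12.3% and 11.7%), and 23 and 17 without drought replicates 1 and 3 of the first (10.1% and 12.3%).

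The 2 contigs with second-sampling drought above first-sampling drought in every library were contig-9522000011 and contig-30000015. The first, at rank 34 and 556 bases long, had 8.51, 8.80 and 12.9 TPM in second-sampling drought, against 5.50, 5.18 and 5.60 TPM in first-sampling drought leaves. In watered leaves contig-9522000011 had 2.52, 2.37 and 1.84 TPM at the second sampling, against 5.92, 6.84 and 6.20 TPM at the first. Its log2 fold change between the drought groups was 0.87 with a standard error of 0.42 (edgeR adjusted p = 0.777), so the difference did not pass the test, and the adjusted p lay between 0.232 and 1.0 over 21 alternative settings. Its counts were whole in 11 of 12 libraries. The other, contig-30000015 at rank 98 and 1579 bases long, had 43.2, 41.2 and 46.3 TPM in second-sampling drought, against 23.7, 29.5 and 36.5 TPM in first-sampling drought leaves. In watered leaves contig-30000015 had 2.10, 14.0 and 6.62 TPM at the second sampling, against 32.8, 25.4 and 31.6 TPM at the first. Its log2 fold change between the drought groups was 0.52 with a standard error of 0.48 (edgeR adjusted p = 0.909). For the contig at rank 1 the same change was 0.19 with a standard error of 0.60 (edgeR adjusted p = 0.983), with its direction turned to -0.33 without drought replicate 2 of the second sampling, and for the contig at rank 2 it was -0.60 with a standard error of 0.80 (edgeR adjusted p = 0.952).

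The 3 contigs with the lowest fold changes in drought leaves stood at ranks 88, 40 and 17. At rank 88 (1340 bases) the value of -1.81, with a standard error of 1.28, came from 1 library: the contig had 4.37, 2.05 and 1.34 TPM in second-sampling drought, against 3.46, 1.93 and 20.4 TPM in first-sampling drought leaves. Rank 17 (332 bases) was of the same kind, at -1.53 with a standard error of 0.89, with 1.77, 1.44 and 1.68 TPM in second-sampling drought, against 10.9, 2.24 and 1.28 TPM in first-sampling drought leaves. In both, the ranges of the drought groups overlapped. The contig at rank 15 (1588 bases) had the highest value of the 100, 1.74 with a standard error of 0.72, on 1.85, 4.17 and 12.3 TPM in second-sampling drought, against 1.13, 2.44 and 1.82 TPM in first-sampling drought leaves. It was chosen for mention after its values were seen, and its groups overlapped too.

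At rank 40 (1073 bases) the drought groups were well apart. The contig had 14.1, 11.1 and 13.1 TPM in second-sampling drought, against 58.1, 36.6 and 37.4 TPM in first-sampling drought leaves, with 2.30, 5.57 and 2.24 TPM in second-sampling control, against 23.8, 24.0 and 14.9 TPM in first-sampling control leaves. The libraries of the samplings did not overlap in drought leaves, nor in watered leaves, where the rule fixed it. The log2 fold change between the drought groups was -1.79 with a standard error of 0.37 and an adjusted p of 0.394 in edgeR, and DESeq2 gave an adjusted p of 0.000663. Over 21 alternative settings the adjusted p lay between 0.000663 and 0.915, and no edgeR or limma setting brought it under 0.201. The contig at rank 63 (1020 bases), mentioned after its values were seen because it was the only other of the 100 called by DESeq2 in this comparison, had 24.7, 31.4 and 35.4 TPM in second-sampling drought, against 95.6, 62.8 and 90.7 TPM in first-sampling drought leaves. In watered leaves rank 63 had 3.80, 9.16 and 4.21 TPM at the second sampling, against 24.8, 36.8 and 17.2 TPM at the first. Its edgeR log2 fold change between the drought groups was -1.48 with a standard error of 0.36, and its adjusted p was 0.65 in edgeR and 0.0186 in DESeq2, with a range of 0.0186 to 0.915 over the alternative settings.

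**Figure D4:**
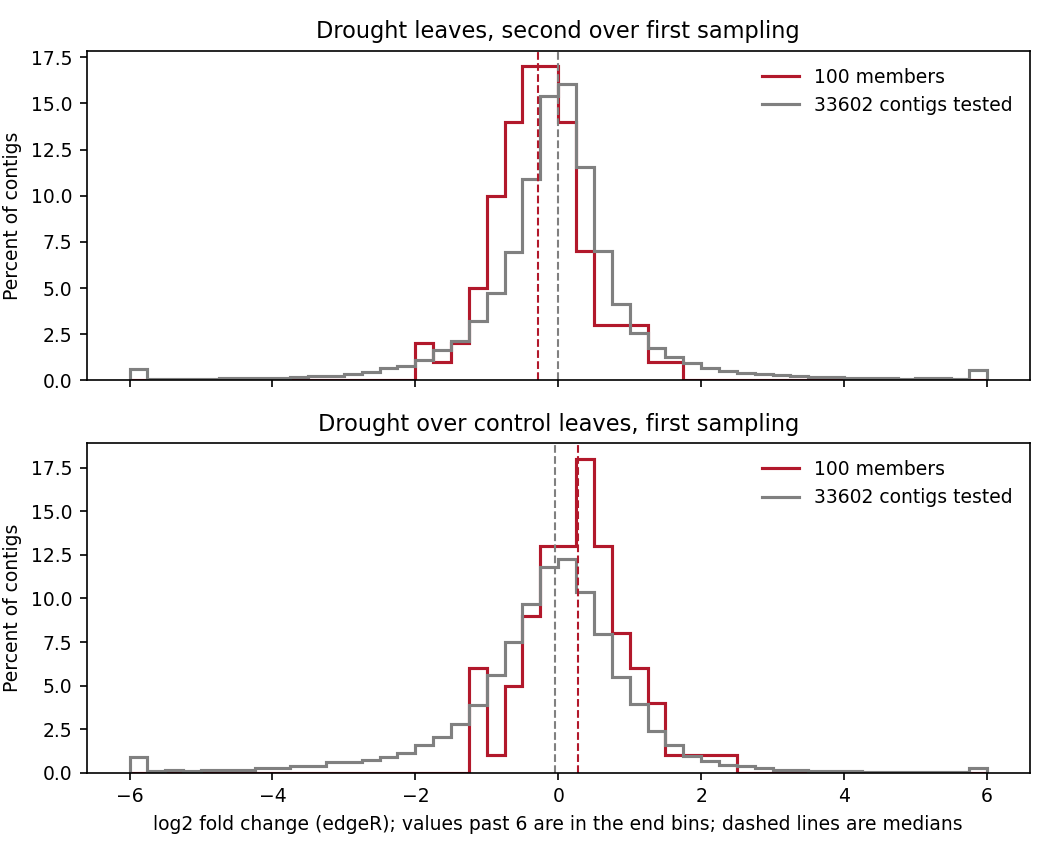
Histograms of edgeR log2 fold changes, in percent of contigs, for the 100 contigs (red) and all 33602 contigs tested (grey), with dashed lines at the medians and values past 6 or -6 in the end bins. The medians of the 100 contigs are -0.29 for second-sampling over first-sampling drought leaves (upper panel) and 0.28 for first-sampling drought over first-sampling control leaves (lower panel), beside -0.01 and -0.04 over all contigs tested.

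Drought against control leaves at the first sampling entered the rule in part, because contigs with every drought library above every control had been left out, and nothing is read from its counts. The median log2 fold change of the 100 contigs was 0.28, beside -0.04 over all contigs tested, with a range of -1.19 to 2.39. It was above 0 in 66 contigs and below 0 in 34, whereas 47.9% of all contigs tested were above 0. All 3 drought libraries lay above all 3 controls in 13 contigs, beside 9.91% of all contigs with a mean of at least 2 TPM, and below them in 4, beside 16.5%. Without the libraries that stood apart the counts were 22 (19.0%) and 15 (26.0%). Leaving out 1 of the 6 libraries compared gave 15 to 25 above, beside 11.3% to 19.0% of all those contigs, and 4 to 15 below, beside 20.8% to 26.0%. The count above was 25 without drought replicate 1 (15.4% of all), and 21 and 22 without control replicates 1 and 2 (14.9% and 19.0%). The count below was 7 and 10 without drought replicates 2 and 3 (21.5% and 21.0%), and 7, 15 and 7 without control replicates 1, 2 and 3 (22.3%, 26.0% and 20.8%). By edgeR's test no contig was called in this comparison, which is 0.0% of those tested, and 12 of the 100 were higher and 1 lower at an unadjusted p under 0.05, beside 5.34% and 7.88%. DESeq2 gave 95 of the 100 an adjusted p and called 4 of them higher in drought leaves, beside 1.81% of all contigs it gave one, and none lower, beside 2.79%. Without the libraries that stood apart, edgeR called 1 of the 100 higher, beside 1.44% of the contigs then tested, and 2 lower, beside 1.79%.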

How the data were processed

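Per the labels, leaf RNA was made into stranded mRNA libraries, and the submitters' processing notes name cutadapt 1.9 and RSEM. For assembler, aligner and annotation, nothing was given in the labels. The deposited tables hold an estimated count, TPM and FPKM for each contig and library as the authors obtained them with RSEM, and FPKM was not used. RSEM divides reads that match several contigs, so a level can include reads of near-identical copies. TPM values sum to a fixed total per library, so that a change in abundant contigs moves the others.

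Contigs were chosen on deposited TPM. Members and the rule were chosen with earlier results of these data known. Estimated counts were rounded and fitted with edgeR 4.0.16 in R 4.3.3 (TMM, filterByExpr by group, quasi-likelihood test, 4 groups of 3 libraries, Benjamini-Hochberg over 33602 contigs, threshold 0.05), and standard errors were the fold change over the root of F. As a check of the code, the fit was run on simulated counts of independent libraries with 200 contigs changed. That check does not show what size of change could be detected in these libraries. Contrasts with the second-sampling controls, on which the rule rested, were given no test. Drought against control leaves at the first sampling entered the rule in part and was tested, but nothing is read from its counts. Alternatives were DESeq2 1.42.0, limma 3.58.1 on log2(TPM + 1) and log2(TPM + 0.1), RLE factors, other filters, a replicate block, and leaving out single libraries. Leaving out the 3 libraries that stood apart was chosen after seeing the data. Each p-value sets a difference between groups against the spread between these libraries. Floors of 3 counts cover counting error only. Identifiers were given for the contigs ranked first and second and for those with the largest rise in drought leaves among members whose drought libraries did not overlap. Other contigs were referred to by rank: 3 to 10, the boundary, the 5 most abundant, the longest, the shortest and the 3 with the largest fall in drought leaves. No sample was left out. Replicates within a group differed beyond sampling noise in every pair (chi-square per degree of freedom of at least 62.8).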

Additional observations from a re-analysis of the deposited data

How the results depend on the processing

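Of 371 values recomputed under alternatives, 317 stayed within the limits of the reported value, 53 moved and 1 reversed. The causes were not tested, apart from the fewer libraries or contigs that some alternatives use by construction. Contigs meeting the rule numbered 865 on TMM-scaled values and 5242 without the 3 libraries that stood apart, and 1622 to 5771 with each library left out, the highest without second-sampling control replicate 2. Among the 100 contigs, 10 stayed among the first 100 without the 3 libraries, and 10 to 95 with each library left out (66 and 64 without second-sampling control replicates 1 and 3, 62 without first-sampling control replicate 3). For drought at the second against the first sampling, 1 contig was called by edgeR, 329 by DESeq2, 7 and 8 by limma with 1 and 0.1 added, 14 without the 3 libraries, 0 with at least 10 counts in every library, 0 in a fit of 6 libraries, and 0 to 8 with each library left out. Of the 100 contigs DESeq2 called none higher and 2 lower, beside 0.448% and 0.548% of the contigs it gave an adjusted p. Between drought and control leaves of the first sampling, 0 were called by edgeR, 1312 by DESeq2, 25 and 27 by limma, 1093 without the 3 libraries and 0 to 11 with each library left out. DESeq2 gave 95 of the 100 an adjusted p and called 4 higher and none lower, beside 1.81% and 2.79% of all it gave one. Without the 3 libraries edgeR called 1 of the 100 higher and 2 lower, beside 1.44% and 1.79% of the contigs then tested. Second-sampling drought had the highest mean in 23 contigs without the 3 libraries (29.4% of all). The count was 11 to 26 with each library left out, and no share over all contigs is given beside it. Non-overlap without the 3 libraries held for 22 and 15 contigs (first-sampling drought above and below control), beside 19.0% and 26.0% of all. It held for 17 (second-sampling below first-sampling drought), beside 11.7%. With each library left out, those ranges were 13 to 25, 4 to 15 and 9 to 23, and 2 to 8 for second-sampling above first-sampling drought. Leaving out a library of neither group compared left the counts, in that order, at 13, 4, 9 and 2, beside 9.91%, 16.5%, 5.98% and 8.16% of all. Leaving out a compared library can only keep or raise them, and the shares over all contigs rose too. In the same order, those shares were then 11.3% to 19.0%, 20.8% to 26.0%, 8.81% to 12.3% and 12.8% to 14.9%. The fold change of contig-1591000012 between the drought groups was -0.33 without drought replicate 2 of the second sampling, within -0.33 to 0.55 for each library left out. Median fold changes of the 100 contigs kept their direction in all alternatives run. In both comparisons with the second-sampling controls the rule largely fixed that direction, so nothing is read from it there. The values of those comparisons are among the 371 recomputed.

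Whether the replicate numbers pair the samples was left undecided. The 18 same-numbered correlations of deviations ran from -0.11 to 0.20, 6 of them above 0.1. Different-numbered ones ran from -0.24 to 0.17, and 6 of 12 libraries correlated best with their own number. With the replicate number as a block, 0 contigs were called for drought at the second against the first sampling, in place of 1, and the median of the 100 contigs was -0.23.

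Without contig descriptions or sequences, no function can be attached. The ranking rests on the highest of 3 control libraries and the lowest of 9 others, so 1 library can set it. Low counts limit the scarcest contigs.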
